A study of Mus musculus with 3 samples.

Results

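The Toll-like receptor genes Tlr1 to Tlr9 and Cd14, the gene of a lipopolysaccharide co-receptor, were followed in sorted stroma of mouse tumours. The 10 genes were chosen by name, each from probe sets annotated with exactly 1 symbol, and were 10 of the 22087 genes measured in this way. Each was represented by 1 probe set on the Affymetrix array, on which biotin-labelled RNA is bound by probes grouped into probe sets. Toll-like receptors recognise molecules of microbes and of damaged cells. Tlr1, Tlr2, Tlr4, Tlr5 and Tlr6 act at the cell surface on lipids and proteins, while Tlr3, Tlr7, Tlr8 and Tlr9 act in endosomes on nucleic acids. Their signal passes through adaptor proteins to NF-kappa-B and interferon regulatory factors, which turn on cytokine genes. Among the cells of tumour stroma they are best known from macrophages, neutrophils and dendritic cells, and fibroblasts also express some of them.

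The samples formed 1 group, stroma of tumours labelled Dicer1 +/-, with samples 1, 2 and 3. Dicer1 encodes the enzyme that cuts microRNA precursors. Live cells that lacked PECAM1, an adhesion protein of endothelium and some leukocytes, and the red fluorescent protein tdTomato, which marked the tumour cells, were sorted for total RNA. The labels give neither the strain and age of the mice, nor the driver of tdTomato, nor whether stroma cells themselves carried the Dicer1 alteration. They do not expand the name ASD that the series title gives the tumours, nor do they say that each sample is a different animal. An SD here therefore covers the spread of these samples alone. Stroma of the other genotype that the series title sets beside it was not analysed here. No comparison of genotypes and no test between groups was therefore made, and all values below are descriptions.

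Levels are log2 intensities as the authors deposited them, and a difference of 1 is 2-fold. Over all probe sets the median was 5.35, 5.34 and 5.36 in samples 1 to 3. A gene was counted as detected when its value on an array exceeded a detection level, the 95th percentile of the array's 1438 probe sets for sensory receptors of smell, pheromones and taste. This level was 5.16, 5.11 and 5.20 for samples 1 to 3. Dicer1 stood at 8.10, 8.10 and 8.08 and Pecam1, the gene of the sorting antigen, at 8.02, 7.20 and 8.25 in samples 1 to 3, so the sorted cells held Pecam1 RNA. Sample 1 also differed from the others in the X-inactivation RNA Xist (9.78 against 3.43 and 3.49), and in the Y-linked Eif2s3y (3.86 against 8.51 and 8.71). By these sex-linked genes sample 1 came from an animal of another sex than samples 2 and 3, so the spread over all 3 samples is not technical alone. These genes do not tell whether samples 2 and 3 came from different animals. Samples 2 and 3 differed by more than 1 in 471 genes, samples 1 and 3 in 373 and samples 1 and 2 in 248. Counted were named genes outside these receptor families that were detected on at least 1 array of the pair. Apart from detection and the summed intensities below, no gene's level was set against that of another gene, since probe sets bind with unequal strength.

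All 10 genes were detected on all 3 arrays, beside 60.5% of the 20658 named genes outside the receptor families of the background. Tlr8 at its lowest, in sample 3, lay 1.16 above the detection level of that array. With the 99th percentile in place of the 95th, 9 genes passed on every array and Tlr8 passed in sample 1 alone. Of the 9, Tlr5 passed narrowly in sample 3, at 6.501 against a level of 6.491. None of the 10 had a range over the samples, the highest minus the lowest value, above 1, beside 5.7% of the 13636 genes detected on at least 1 array, from here on called all detected genes. A range above 0.5 was found in 5 of the 10 (Tlr1, Tlr3, Tlr4, Tlr7 and Tlr8), beside 26.8% of all detected genes. The median range of the 10 was 0.49, and 7 of them lay above the median of all detected genes, 0.31.

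**Figure D1:**
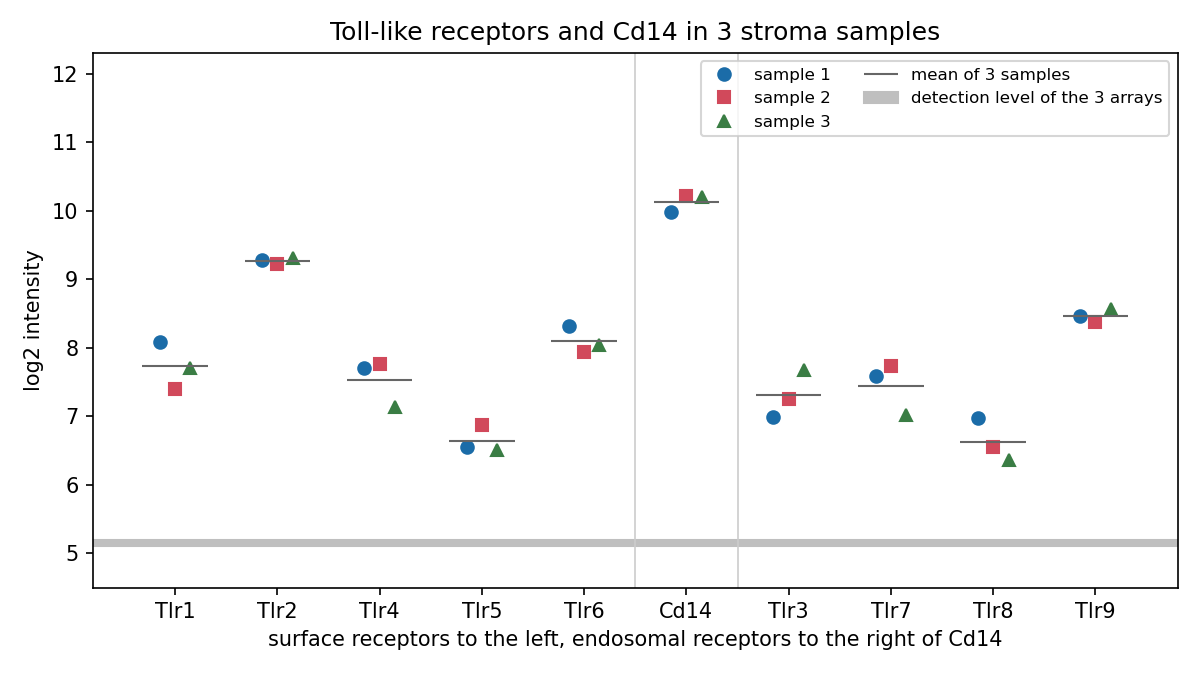
Log2 intensity of each gene (vertical axis) in sample 1 (circle), sample 2 (square) and sample 3 (triangle), with the mean of the 3 samples as a line and the detection levels of the 3 arrays as a grey band. All values lie above the band, the 3 symbols nearly coincide for Tlr2 and Tlr9, and sample 3 is set apart below the others for Tlr4 and Tlr7.

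The lipopolysaccharide receptor was followed through its parts. Tlr4, which recognises lipopolysaccharide of Gram-negative bacteria, was at 7.71, 7.76 and 7.13 in samples 1 to 3, with a mean of 7.53 ± 0.35 (SD, n = 3). Sample 3 was the low one, and samples 1 and 2 were 0.053 apart, less than the median SD of all detected genes (0.16). Ly96, which encodes the MD-2 protein that holds the lipid in the Tlr4 complex, was ordered in the same way, at 7.22, 7.34 and 6.63. Without sample 3 the range of Tlr4 was 0.053 in place of 0.63 and that of Ly96 0.12 in place of 0.71. Cd14, which hands lipopolysaccharide to this complex, was at 9.98, 10.21 and 10.20, with a mean of 10.13 ± 0.13 (SD, n = 3). Here sample 1 was the low one by 0.22, and samples 2 and 3 were 0.0062 apart. Lbp, the serum protein that delivers the lipid to Cd14, was at 9.04, 9.78 and 9.47, also lowest in sample 1, with a range of 0.74 that was 0.31 without this sample and 0.43 without sample 2. The genes of this receptor thus had their lowest values in different samples, Tlr4 and Ly96 in sample 3 and Cd14 and Lbp in sample 1.

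The lipopeptide receptors differed in how far the samples lay apart. Tlr2, the shared partner of Tlr1 and Tlr6 in recognising bacterial lipopeptides, was at 9.27, 9.23 and 9.31 in samples 1 to 3, with a mean of 9.27 ± 0.043 (SD, n = 3). Its range of 0.086 was the smallest of the 10 genes, and no neighbouring pair of samples was farther apart than the median SD. Tlr1, which with Tlr2 binds triacylated lipopeptides, was at 8.09, 7.39 and 7.71, with a mean of 7.73 ± 0.35 (SD, n = 3). All 3 samples stood apart, sample 1 being 0.69 higher than sample 2, a 1.62-fold difference. Tlr6, which with Tlr2 binds diacylated lipopeptides, was at 8.31, 7.94 and 8.03, with a mean of 8.09 ± 0.19 (SD, n = 3). Its order was that of Tlr1, with sample 1 set apart by 0.28 and samples 2 and 3 within 0.096 of each other. Without sample 1 the range was 0.32 for Tlr1, from 0.69, and 0.096 for Tlr6, from 0.37, while without sample 2 that of Tlr1 was 0.38. Tlr1 and Tlr6 are neighbouring genes of similar sequence, and whether their probe sets bind each other's transcripts was not tested. Tlr5, the receptor of bacterial flagellin, was at 6.54, 6.87 and 6.50, with a mean of 6.64 ± 0.20 (SD, n = 3). Sample 2 was the high one, and without it the range was 0.044 in place of 0.37.

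Of the nucleic acid receptors, Tlr3 and Tlr7 went opposite ways between samples 2 and 3. Tlr3, which recognises double-stranded RNA, was at 6.99, 7.25 and 7.67 in samples 1 to 3, with a mean of 7.30 ± 0.34 (SD, n = 3). All 3 samples stood apart, and sample 3 was the highest. Without sample 3 its range was 0.26 in place of 0.68, and without sample 1 it was 0.42. Tlr7, which recognises single-stranded RNA, was at 7.59, 7.74 and 7.02, with a mean of 7.45 ± 0.38 (SD, n = 3). Sample 3 was the low one, and the range of 0.71, the largest of the 10 and a 1.64-fold span, was 0.15 without it. Tlr8, the neighbour of Tlr7 on the X chromosome and in human a receptor of single-stranded RNA, was at 6.97, 6.55 and 6.36, with a mean of 6.63 ± 0.31 (SD, n = 3). Sample 1 was the high one, and without it the range was 0.18 in place of 0.61. Of these X-linked neighbours, Tlr8 was highest in sample 1, the sample with Xist, while Tlr7 there lay 0.15 below sample 2. With a single such sample, sex and any other difference between sample 1 and the others cannot be told apart. Tlr9, which recognises unmethylated CpG DNA, was at 8.46, 8.38 and 8.56, with a mean of 8.47 ± 0.091 (SD, n = 3). Neighbouring samples of Tlr9 were within 0.096 of each other, less than the median SD.

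Tlr1, Tlr6 and Tlr8 were the 3 genes with their highest value in sample 1, and Tlr2 was the gene with the smallest range. Start site windows of these 4 genes are shown to set the letters upstream of genes that shared a high sample beside those of a gene that hardly varied. They come from RefSeq tables of build GRCm38.p6, and each runs from 250 bases before to 50 bases after the start site. Of the 9 receptor genes, 7 had at least 1 window in these tables, 9 windows together, and Tlr4 and Tlr7 had none. The windows were searched on both strands for GAGGAA, a core bound by the myeloid factor PU.1, for GAAANNGAA, a shortened form of an interferon response element, and for GGGNNTTCC, a kappa-B form. GAGGAA was found in 3 of the 9 windows (Tlr1, Tlr8 and Tlr9) and in 28.3% of all 32851 windows of the table. GAAANNGAA was found in 2 windows (Tlr6 and Tlr8) and in 8.56% of all, and GGGNNTTCC in 1 window (Tlr2) and in 5.82% of all. The capitals below mark these letters on either strand. The Tlr6 stretch holds 2 overlapping matches on the opposite strand, the Tlr8 stretches are GAGGAA and then GAAANNGAA on the opposite strand, and the Tlr2 stretch holds overlapping matches on both strands. Of the 2 windows each of Tlr1 and Tlr6, the one with a match is shown. All 4 genes lie on the minus strand, at chr5:64933509-64933808 (Tlr1), chr5:64959117-64959416 (Tlr6), chrX:167264280-167264579 (Tlr8) and chr3:83841559-83841858 (Tlr2).
Tlr1: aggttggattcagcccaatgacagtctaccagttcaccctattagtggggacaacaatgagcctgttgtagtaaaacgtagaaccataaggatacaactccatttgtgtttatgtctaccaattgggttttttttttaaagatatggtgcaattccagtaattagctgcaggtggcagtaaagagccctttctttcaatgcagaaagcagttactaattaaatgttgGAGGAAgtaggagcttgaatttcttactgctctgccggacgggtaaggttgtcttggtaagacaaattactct
Tlr6: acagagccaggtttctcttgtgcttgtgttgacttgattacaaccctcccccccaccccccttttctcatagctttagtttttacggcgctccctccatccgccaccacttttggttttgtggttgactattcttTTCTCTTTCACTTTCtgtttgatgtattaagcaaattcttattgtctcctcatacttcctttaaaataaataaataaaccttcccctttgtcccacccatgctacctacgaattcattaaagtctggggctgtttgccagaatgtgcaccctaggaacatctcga
Tlr8: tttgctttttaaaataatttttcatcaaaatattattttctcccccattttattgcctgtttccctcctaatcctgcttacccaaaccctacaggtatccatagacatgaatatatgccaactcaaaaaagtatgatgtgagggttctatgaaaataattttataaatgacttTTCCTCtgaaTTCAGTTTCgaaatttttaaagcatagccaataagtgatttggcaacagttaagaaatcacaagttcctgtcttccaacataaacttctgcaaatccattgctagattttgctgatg
Tlr2: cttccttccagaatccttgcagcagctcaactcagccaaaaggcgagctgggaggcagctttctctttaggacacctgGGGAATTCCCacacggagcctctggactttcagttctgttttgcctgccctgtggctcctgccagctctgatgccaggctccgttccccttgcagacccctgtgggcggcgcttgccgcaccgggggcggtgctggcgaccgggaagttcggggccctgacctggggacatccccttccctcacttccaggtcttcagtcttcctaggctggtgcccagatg
GAGGAA thus lay in the Tlr1 and Tlr8 windows and GAAANNGAA in those of Tlr6 and Tlr8, and none of the 3 searched motifs was found in all 3 genes highest in sample 1. A match is a description of letters and not a site of binding, and no match says only that these letters are not in the window.

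Markers of cell types that the gate could hold, and of endothelium, against which PECAM1-negative cells were sorted, differed between the samples as well. Each marker list is described by the median, over its genes detected on at least 1 array, of each sample's deviation from the gene's mean. Over all detected genes these medians were -0.0070, 0.00 and -0.00062. Summed intensities cover every measured gene of a list, detected or not. Of all detected genes 33.0%, 34.2% and 32.8% were highest in samples 1, 2 and 3. The shares lowest in these samples were 35.8%, 30.9% and 33.3%. In bulk RNA, fewer cells of a type and less RNA per cell cannot be told apart. Macrophage markers were detected in full, 8 of 8, and 7 of 8 were lowest in sample 3, with medians of 0.19, 0.26 and -0.50 for samples 1 to 3. Adgre1, a surface marker of mouse macrophages, was at 9.46, 9.19 and 8.47, Csf1r, the receptor of macrophage growth factor, at 10.35, 10.54 and 9.99, and Cd68, a lysosomal protein, at 10.80, 10.88 and 10.82. The summed linear intensity of the list ranged from 6232 in sample 3 to 9528 in sample 2. Tlr4, with deviations of 0.17, 0.23 and -0.40, and Tlr7, with 0.14, 0.29 and -0.43, were thus low in the sample in which most macrophage markers were low. Cd14, with -0.15, 0.077 and 0.071, was not low in that sample. The part of macrophage content in the Tlr4, Tlr7 and Cd14 values was not tested.

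Markers of connective tissue and mast cells had their lowest medians in sample 3 too. Fibroblast markers, 6 of 6 detected, were lowest there in 6 of 6, with medians of 0.050, 0.42 and -0.51, and a summed intensity from 6259 in sample 3 to 12190 in sample 2. Among them Pdgfra was at 8.55, 9.24 and 7.82, Dcn at 11.64, 12.02 and 11.20, and Lum at 10.50, 10.83 and 9.91. All 6 were highest in sample 2, as were Tlr4, Tlr5, Tlr7 and Cd14, but of these only Tlr5 had sample 2 set apart. For Tlr4 and Tlr7 sample 1 lay 0.053 and 0.15 below sample 2. For Cd14 sample 3 lay 0.0062 below sample 2. All 3 gaps were less than the median SD (0.16). Cd14 was not low in sample 3, with a deviation of 0.071 there. Pericyte and smooth muscle markers, 5 of 5 detected, had medians of -0.040, 0.63 and -0.55 and a summed intensity from 2324 in sample 3 to 5708 in sample 2, with Rgs5 at 9.93, 10.64 and 9.47, Acta2 at 10.54, 11.18 and 10.03, and Myh11 at 8.81, 10.02 and 7.90. Mast cell markers, 5 of 5 detected, had medians of -0.079, 0.34 and -0.45 and a summed intensity from 1212 in sample 3 to 1995 in sample 2. Of these, 4 of 5 were lowest in sample 3, while Kit went the other way and was highest there. Kit was at 7.31, 7.50 and 7.97, Cpa3 at 9.0, 9.05 and 8.26, and Mcpt4 at 9.22, 9.55 and 8.42. The part of these cells in the Tlr4, Tlr5, Tlr7 and Cd14 values was not tested.

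**Figure D2:**
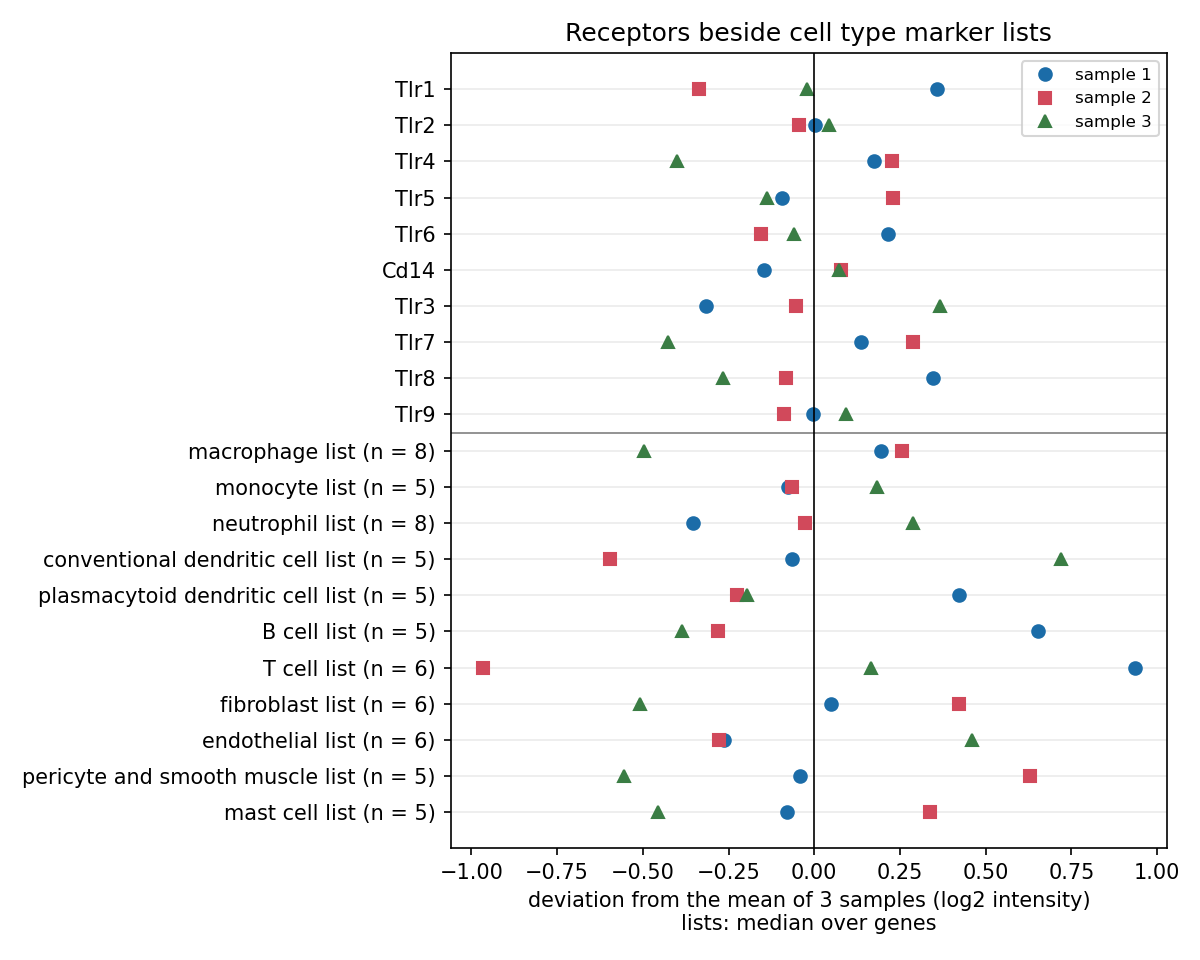
Deviation of each sample from the mean of the 3 samples on the log2 scale (horizontal axis), for the 10 genes above the line. Below it is the median deviation over the genes of each cell type marker list detected on at least 1 array. Circles, squares and triangles are samples 1, 2 and 3. Sample 3 lies lowest for Tlr4 and Tlr7 and for the macrophage and fibroblast lists, and highest for Tlr3 and the conventional dendritic cell list.

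Other myeloid and endothelial markers had their highest medians in sample 3, the sample in which Tlr3 was highest. Conventional dendritic cell markers, 5 of 5 detected, had sample 3 as the highest and sample 2 as the lowest in 5 of 5, with medians of -0.065, -0.60 and 0.72 and a summed intensity from 539 in sample 2 to 1492 in sample 3. Flt3, a growth factor receptor of these cells, was at 6.74, 6.66 and 8.36, Xcr1, a chemokine receptor of the cross-presenting subset, at 6.30, 5.94 and 6.85, and Cd209a, a lectin, at 8.25, 7.41 and 9.06. Neutrophil markers, 8 of 8 detected, were highest in sample 3 in 7 of 8 and lowest in sample 1 in 5 of 8, with medians of -0.35, -0.026 and 0.29 and a summed intensity from 18263 in sample 1 to 22261 in sample 3. Csf3r, the receptor of granulocyte growth factor, was at 8.62, 9.04 and 9.83, the chemokine receptor gene Cxcr2 at 8.95, 9.47 and 9.80, and S100a8 at 12.47, 12.43 and 12.43. Tlr3, with deviations of -0.31, -0.052 and 0.37, had the order of the neutrophil medians. The dendritic cell list was lowest in sample 2 and not in sample 1. The monocyte medians given next were highest in sample 3 but nearly equal in samples 1 and 2. Of the 5 monocyte markers, 2 were lowest in sample 1, 2 in sample 2 and 1 in sample 3. Monocyte markers, 5 of 5 detected, had medians of -0.077, -0.064 and 0.18 and a summed intensity from 7432 in sample 1 to 9105 in sample 3, with Ly6c2 at 11.35, 11.40 and 11.65, Ccr2 at 10.15, 9.91 and 10.18, and Plac8 at 9.44, 9.04 and 9.61. Of the endothelial markers 4 of 6 were detected on all arrays and 6 on at least 1, although the sort took cells without PECAM1. Over these 6 the medians were -0.26, -0.28 and 0.46, and the summed intensity ran from 410.0 in sample 2 to 783 in sample 3. Cdh5, the endothelial cadherin, was at 6.17, 6.75 and 7.81 and Kdr at 5.47, 5.21 and 6.09. Emcn, at 4.77, 4.49 and 6.37, was detected in sample 3 alone, and Tie1 was below the detection level in sample 1. The part of these cells in the Tlr3 value was not tested.

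Lymphocyte and plasmacytoid dendritic cell markers had their highest medians in sample 1, where Tlr1, Tlr6 and Tlr8 were highest. T cell markers, 6 of 6 detected, were highest there in 6 of 6 and lowest in sample 2 in 6 of 6, with medians of 0.93, -0.97 and 0.17 and a summed intensity from 429 in sample 2 to 1717 in sample 1. Of the subunits of the T cell receptor complex on this list, Cd3e was at 8.59, 6.49 and 8.04, Cd3d at 8.06, 5.89 and 7.23, and Cd3g at 8.42, 5.14 and 7.33. B cell markers, 5 of 5 detected, were highest in sample 1 in 5 of 5, with medians of 0.65, -0.28 and -0.39 and a summed intensity from 1424 in sample 3 to 3180 in sample 1. Cd79a and Cd79b, signalling chains of the B cell receptor, were at 9.48, 8.57 and 8.44 and at 10.40, 9.67 and 9.53, and Ms4a1, which encodes CD20, at 9.05, 6.34 and 6.45. Of the plasmacytoid markers 4 of 6 were detected on all arrays and 5 on at least 1. The medians over these 5 were 0.42, -0.23 and -0.20. They include Klk1, at 6.51, 4.91 and 5.42, which was below the detection level in sample 2. The summed intensity, over all 6 markers, ran from 725 in sample 3 to 1678 in sample 1. The sum gives more weight to probe sets with high values, and it holds Ly6d, at 9.74, 8.22 and 7.65. Siglech, a surface lectin of these cells, was at 7.45, 6.89 and 7.01 and Bst2 at 8.27, 8.55 and 6.72, while Ccr9 was below the detection level on all 3 arrays, at 4.51, 4.61 and 4.51. Tlr1 and Tlr6 were lowest in sample 2, as the T cell list was. For Tlr6, however, samples 2 and 3 were 0.096 apart, less than the median SD (0.16). Tlr8 was lowest in sample 3, as the B cell list was by its median. By count, 3 of the 5 B cell markers were lowest in sample 2 and 2 in sample 3. Tlr9, which B cells and plasmacytoid dendritic cells are known to express, was not highest in sample 1, with deviations of -0.0037, -0.089 and 0.092. The part of lymphocytes and plasmacytoid cells in these values was not tested.

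The other genes of the pathway were taken from 6 lists. Of 12 accessory and further receptor genes all 12 were measured and detected, and none had a range above 1. With the 99th percentile as detection level 9 of the 12 passed on every array. The endosomal receptors depend on Unc93b1, which carries them from the endoplasmic reticulum and stood at 9.69, 9.64 and 9.57 in samples 1 to 3, while the chaperones Hsp90b1 and Cnpy3 were at 11.58, 11.47 and 11.31 and at 7.75, 7.70 and 7.73. These 3 genes had ranges of 0.11, 0.27 and 0.044, all below the ranges of Tlr3, Tlr7 and Tlr8, while the range of Tlr9, 0.18, lay below that of Hsp90b1. The largest ranges of the list were those of Cd36, a scavenger receptor that cooperates with Tlr2 and Tlr6 (8.59, 9.13 and 8.31), Tlr12, a receptor of parasite profilin (6.0, 5.21 and 5.79), Lbp and Ly96. Without sample 2 the range of Cd36 was 0.27 in place of 0.82 and that of Tlr12 0.21 in place of 0.79. Tlr12 was near the background, in sample 2 only 0.093 above the detection level, and below the 99th percentile on every array.

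Among adaptors, kinases and ubiquitin ligases 15 of 18 genes were measured under a single symbol, and all 15 were detected, none with a range above 1. With the 99th percentile as detection level 10 of the 15 passed on every array, and Tirap and Ticam1 were not among them. In 11 of the 15 sample 3 was the highest, beside 32.8% of all detected genes. For most of the 11, however, the next sample was closer than the median SD (0.16). These were Tirap, Ticam1, Ikbkg, Tbk1, Tab1, Tab2 and Tab3, with gaps from 0.00024 (Tirap) to 0.158 (Tab3). Myd88, the adaptor of every Toll-like receptor here except Tlr3, was at 7.42, 7.61 and 8.11, and Irak2, a kinase that it recruits, at 8.03, 8.03 and 8.78. Without sample 3 the range of Myd88 was 0.19 in place of 0.69, and samples 1 and 2 nearly coincided for Irak2. Ikbkb, a kinase of the NF-kappa-B inhibitor, was at 8.04, 7.93 and 8.36, and Tab3, an adaptor of the kinase Map3k7, at 6.81, 6.55 and 6.96. Ticam1, the adaptor of Tlr3 that also serves Tlr4, was at 5.92, 6.20 and 6.22, Ticam2, its bridge to Tlr4, at 6.71, 6.61 and 6.69, and Tirap, the bridge between Myd88 and Tlr2 or Tlr4, at 5.79, 6.0 and 6.0. Sample 3 was thus set apart above the others for Myd88, Irak2, Ikbkb and the kinase gene Ikbke, and not for Ticam1, Ticam2 and Tirap.

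Of the transcription factors 9 of 11 were measured, and all 9 were detected. The largest ranges were 0.71 for Irf8, a factor of dendritic cells and monocytes (8.28, 7.71 and 8.43), 0.45 for Nfkb2 (7.56, 7.70 and 8.01), 0.34 for Irf7, which acts downstream of Tlr7 and Tlr9 (7.47, 7.81 and 7.75), and 0.34 for Jun (10.90, 10.95 and 10.61). Without sample 2 the range of Irf8 was 0.15. Of the genes listed as inhibitors 12 of 13 were measured, and 11 were detected, all but Sarm1, at 4.07, 4.04 and 4.06. Being on this list does not show that a gene only damps the pathway, and the role of each was not tested. The ranges of these 11 were at most 0.45, with the largest in Cyld (8.25, 7.80 and 8.06), Sigirr (6.14, 5.72 and 6.04), Peli1 (8.72, 8.30 and 8.43) and Nfkbiz (8.91, 9.20 and 9.05). Cyld is a deubiquitinase that damps the pathway, and Sigirr is a membrane inhibitor of the receptor family.

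Cytokines and effectors that the receptors can induce had a median range of 0.65, above the 0.49 of the 10 genes and the 0.31 of all detected genes. All 20 were measured, 16 were detected on all arrays, and 3 had a range above 1. Ifnb1, which encodes interferon beta, was at 4.56, 7.48 and 3.79, detected in sample 2 alone. The chemokine Cxcl1 was at 7.82, 9.15 and 7.63, and Ccl2 at 9.79, 10.24 and 8.76, both highest in sample 2. Without sample 2, 1 gene of the list kept a range above 1, Ccl2 with 1.04, while Cxcl1 had 0.19 and Ifnb1 was below the detection level on both arrays. Ptgs2, the inducible enzyme of prostaglandin synthesis, was highest in sample 3, at 9.14, 9.40 and 10.11. Besides Ifnb1, the genes not detected on every array were Il12b (5.13, 5.09 and 5.28), Nos2 (5.17, 4.87 and 5.23) and Saa3 (5.25, 5.58 and 5.17).

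Genes of proteins reported as endogenous ligands of Tlr2 or Tlr4 were all detected, 9 of 9, with no range above 1. Dcn, Vcan and Tnc, which encode matrix proteins, and Hspa1a, a heat shock protein, had the largest ranges. Vcan was at 9.24, 9.70 and 9.01, Tnc at 8.84, 8.79 and 8.35, and Hspa1a at 11.19, 10.43 and 10.76, while Dcn is given above among the fibroblast markers. Vcan and Dcn were also in the marker lists of monocytes and fibroblasts, and S100a8 and S100a9 in that of neutrophils.

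**Figure D3:**
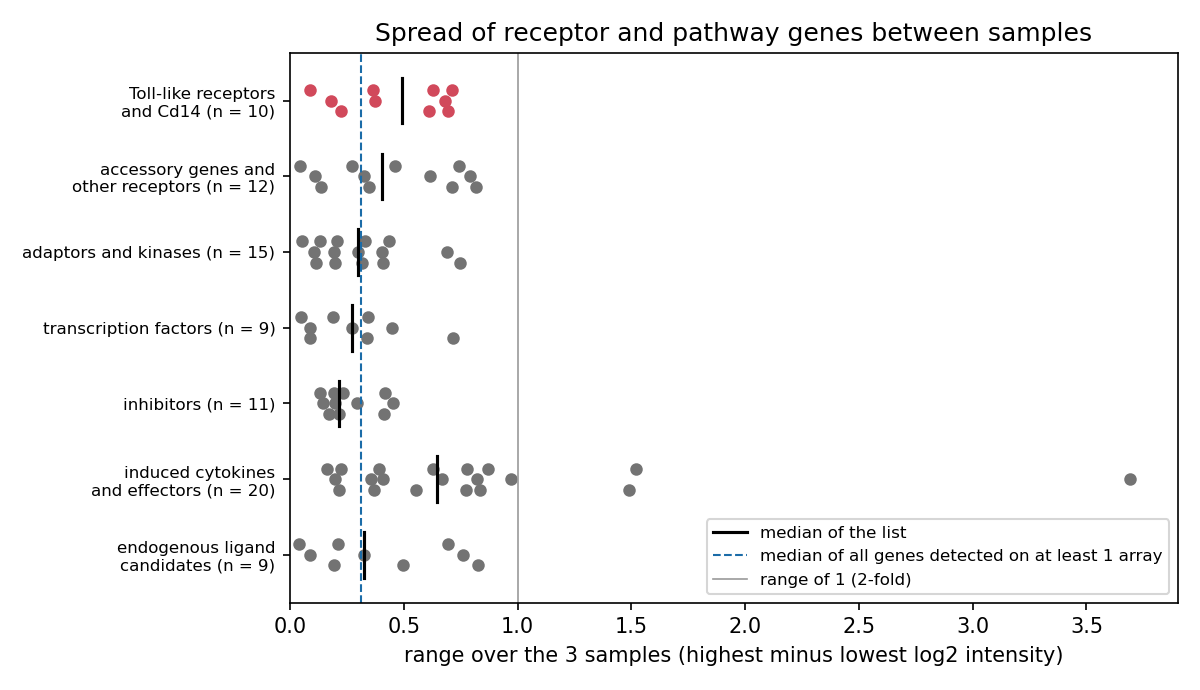
Range over the 3 samples (highest minus lowest log2 intensity, horizontal axis) of each gene detected on at least 1 array, by list, with the list's median as a black line and the median of all detected genes (0.31) as a dashed line. The 10 genes lie between 0.086 and 0.71, inside the range of 1, and Ifnb1, Cxcl1 and Ccl2 are the 3 points beyond it.

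For the 5 genes with a range above 0.5, the genes of the lists with the most similar deviations were sought among 136 candidates. Likeness was the largest difference between the deviations of the same sample, over 3 samples only, so that near matches are common. Nearest to Tlr4 were Ly96 (0.050), the phagocytic receptor gene Mertk (0.073) and Tnc (0.095), and nearest to Tlr7 were Ly96 (0.018), Mertk (0.030) and Col1a1 (0.066). Tlr4 and Tlr7 thus shared their 2 nearest genes, and Mertk was at 8.25, 8.39 and 7.64 in samples 1 to 3. Nearest to Tlr3 were Kit (0.042), Myd88 (0.053) and Chil3 (0.079). Nearest to Tlr1 were Hspa1a (0.039), the chemokine Ccl5 (0.079) and Siglech (0.11), and nearest to Tlr8 the co-stimulatory receptor gene Cd40 (0.017), Il12a (0.13) and the Fc receptor gene Fcgr1 (0.14). Ccl5 was at 9.34, 8.79 and 9.06 and Cd40 at 7.17, 6.71 and 6.54.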

How the data were processed

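The deposited values of the 3 arrays, 1 group of samples, are log2 intensities of 31873 probe sets. The tool Partek is named per the submitters' processing notes. Its version and role and the background correction, normalization and probe summarization are details not given in the sources used here. That the scale is log2 follows from the values, 2.00 to 13.18. With arrays, their number limits the precision.

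Of the probe sets, 23094 had 1 symbol in GEO's platform annotation, 1764 had several and 7015 were unnamed here. Only those with 1 symbol were used, and a gene was represented by its probe set with the highest mean. Means, SDs and ranges were computed with pandas 2.3.3 in Python 3.11.15 and checked on simulated data. No test was run. The 10 genes and the 17 lists (6 pathway, 11 marker, 146 symbols, 138 measured and 8 not analysed here) were chosen with earlier results of these data known. Named besides the 10 were, per pathway list, the 4 genes with the largest range and up to 5 not detected, a fixed set of adaptors and accessory genes, the first 3 measured markers per list, and the nearest genes. The motifs and the windows shown were chosen after the values and matches were seen. Alternatives changed the detection level, scaling, probe set rule, thresholds and filter, and left out each sample.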

Additional observations from a re-analysis of the deposited data

How the results depend on the processing

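The 10 genes were all detected under every alternative except the 99th percentile, where 9 passed, and none had a range above 1 under any alternative that kept this threshold. With a range threshold of 0.5 the counts were 5 of the 10 genes and 3653 of all detected genes. Over all named genes, 7867 were detected with the 99th percentile in place of 12508. The 777 genes with a range above 1 numbered between 248 and 471 when 1 sample was left out, and a range over fewer samples can only be smaller or equal. Quantile normalization or centring on the medians moved no range of the 10 genes by more than 0.038, and averaging probe sets could move none, since each of the 10 has 1 probe set. Leaving out a sample moved 10 of 30 recomputed ranges by more than the gene's SD. No paired analysis was possible because there was 1 group. Detection of a gene near the background, such as Tlr8 or Tlr5, is limited by signal over background.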
